A study of Mus musculus with 52 samples.

Results

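The transcripts described here code for 6 proteins that carry nutrients or membrane lipids across endothelial cells (ECs): Slc2a1, Mfsd2a, Slc35f2, Slc16a1, Flvcr2 and Atp10a. They were chosen by name, with earlier results of these data known, from 49585 genes with a transcript in the deposited estimates. The study had shown Slc2a1, Mfsd2a and Slc35f2 as genes induced by beta-catenin stabilization in these libraries. Counts of members called, set beside the share of all genes, are therefore a description. Every one of the 6 passed the filter on low counts in each fit. The study asked how far activating beta-catenin signaling in ECs moves leaky vessels of the brain and the pituitary toward the state of the blood-brain barrier (BBB). The data comprise 52 mouse libraries in 26 groups of 2 replicates, namely 24 RNA-seq libraries from sorted cells, 16 RiboTag RNA-seq libraries and 12 libraries of accessible chromatin (ATAC-seq).

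All samples are labeled as adult males. Sorted cells came from the cerebellum, whose vessels have a BBB, and from both lobes of the pituitary, anterior and posterior, whose vessels are permeable, and they were separated into GFP-positive ECs and GFP-negative cells of the surrounding tissue. WT mice for sorting carried Tie2-GFP, a reporter in which regulatory sequences of an endothelial gene drive GFP. The stabilized mice were Ctnnb1flex3/+;Pdgfb-CreER;Tie2-GFP, in which a Cre recombinase driven in ECs removes a part of beta-catenin that is needed for its degradation, and they received 100 µg of 4-hydroxytamoxifen (4HT) at postnatal day 10. Among sorted cells, the effects of Cre, of 4HT and of beta-catenin cannot be told apart, since the methods give the transgene and the drug for the stabilized mice alone. Pituitaries from 20 to 30 mice aged 30 to 90 days were pooled for each replicate. RiboTag mice of both genotypes carried Pdgfb-CreER and 1 Rpl22 ribotag allele, which puts a tag on the ribosomes of recombined cells, and the stabilized ones also carried Ctnnb1flex3. Both genotypes of RiboTag mice had been injected with 4HT some weeks earlier. Their ribosomes were precipitated from cortex, which has a BBB, and from choroid plexus, whose vessels are permeable, at 6 to 8 weeks of age (bound libraries), beside the RNA of the whole homogenate (input libraries). Choroid plexi of 3 to 4 animals were pooled for each replicate.

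Vessels with a BBB let few solutes pass between cells, so that nutrients have to cross the ECs on dedicated carriers. Slc2a1 codes for GLUT1, the carrier of glucose. Mfsd2a codes for a transporter of lysophosphatidylcholine that brings docosahexaenoic acid to the brain, and Slc16a1 codes for the monocarboxylate transporter MCT1, which moves lactate, pyruvate and ketone bodies. Flvcr2 codes for a choline transporter, Atp10a for a flippase that moves phospholipids from the outer to the inner leaflet of the plasma membrane, and Slc35f2 for a putative nucleoside transporter. Stabilized beta-catenin acts with transcription factors of the TCF/LEF family, which bind the words ATCAAAG and TTCAAAG on either strand of DNA.

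The 6 genes lie on 5 chromosomes of the GRCm38 build. Slc16a1 (ENSMUSG00000032902) is at chr3:104638668-104658462 on the plus strand. Slc2a1 (ENSMUSG00000028645) is at chr4:119108711-119137983 on the plus strand, and Mfsd2a (ENSMUSG00000028655) is at chr4:122946850-122961188 on the minus strand. Atp10a (ENSMUSG00000025324) is at chr7:58656166-58829420, Slc35f2 (ENSMUSG00000042195) at chr9:53771538-53818154 and Flvcr2 (ENSMUSG00000034258) at chr12:85746539-85813585, all on the plus strand.

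Slc16a1 had no peak from 94.7 to 41.4 kb before its start in pituitary ECs, whereas the Flvcr2 and Atp10a sites printed below gained peaks in posterior pituitary ECs. Of these, the Atp10a site at +90.8 kb also had peaks in the WT anterior lobe, and that at −38.1 kb had none in cerebellum ECs. The following 4 windows of accessible chromatin are examples from these loci and not a sample of their sites. Each is 201 bases around the strongest ATAC-seq summit of its site, read 5′ to 3′ from the plus strand of GRCm38.p6, and capitals mark a match to ATCAAAG or TTCAAAG on either strand. The first lies between genes 64.9 kb before the start of Slc16a1 (chr3:104573724-104573924), the second in an intron of Flvcr2 38.7 kb after its start (chr12:85785053-85785253), the third between genes 38.1 kb before the start of Atp10a (chr7:58617901-58618101) and the fourth in an intron of Atp10a 90.8 kb after its start (chr7:58746916-58747116).
Slc16a1 −64.9 kb: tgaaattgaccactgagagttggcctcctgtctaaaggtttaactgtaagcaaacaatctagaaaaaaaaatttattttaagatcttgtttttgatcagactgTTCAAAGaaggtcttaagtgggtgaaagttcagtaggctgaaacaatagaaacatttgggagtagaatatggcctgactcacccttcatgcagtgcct
Flvcr2 +38.7 kb: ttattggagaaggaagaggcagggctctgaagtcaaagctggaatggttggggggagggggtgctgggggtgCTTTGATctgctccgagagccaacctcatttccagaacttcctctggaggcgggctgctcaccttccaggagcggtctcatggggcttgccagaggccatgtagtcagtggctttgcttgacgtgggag
Atp10a −38.1 kb: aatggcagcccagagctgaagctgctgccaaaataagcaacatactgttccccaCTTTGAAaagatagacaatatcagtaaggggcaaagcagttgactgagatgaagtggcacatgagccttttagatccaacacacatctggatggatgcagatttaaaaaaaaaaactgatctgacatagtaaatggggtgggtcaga
Atp10a +90.8 kb: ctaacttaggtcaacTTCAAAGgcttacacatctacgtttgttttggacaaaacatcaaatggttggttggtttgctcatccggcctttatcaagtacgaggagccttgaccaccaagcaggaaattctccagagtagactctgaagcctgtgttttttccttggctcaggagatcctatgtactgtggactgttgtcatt

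Sequencing gave 12157485 to 37529274 estimated reads for each sorted library (median 27638900) and 6409013 to 21399125 for each RiboTag library (median 10036750). The summed TPM of 10 endothelial markers was 1943 to 7252 in GFP-positive libraries and 3.28 to 35.0 in GFP-negative libraries. In posterior pituitary ECs this sum was 5240 to 7252 in WT and 1943 to 2234 after stabilization, while the sum of 9 macrophage and microglia markers was 37.6 to 51.6 in WT and 275 to 355 after stabilization; in anterior pituitary ECs the latter was 37.8 to 44.0 and 210 to 321. The sum of 8 markers of choroid plexus epithelium was also higher after stabilization, at 24.2 to 40.4 against 241 to 293 in posterior and 1.90 to 5.76 against 50.3 to 80.8 in anterior pituitary ECs. The sum of 8 mural cell markers was 864 to 1036 in WT cerebellum ECs, 190 to 224 in the WT anterior and 84.0 to 162 in the WT posterior lobe, and that of 5 erythrocyte markers 65218 and 7177, 1350 to 2210 and 1548 to 5289. Protein-coding genes of posterior pituitary ECs held 65.4 and 46.7% of TPM in WT and, after stabilization, 36.4 and 36.2%. The part of these differences in the results below was not tested. Axin2, a target of beta-catenin signaling, went from 0.356 and 0.405 TPM in WT posterior pituitary ECs to 26.7 and 28.1 TPM after stabilization, and from 3.10 and 0.0474 TPM in the WT anterior lobe to 8.97 and 29.6 TPM. One library, stabilized anterior pituitary ECs replicate 2, has a title that says anterior and a tissue label that says posterior, and was assigned to the anterior lobe. Across 17180 genes its log2(TPM + 1) correlated at 0.894 with the other stabilized anterior library and at 0.875 and 0.877 with the stabilized posterior ones. The Slc2a1 and Atp10a rises in the anterior lobe, and the Slc2a1 difference between the lobes, are given with and without it. Other fits of the stabilized anterior lobe are given with it, and the levels of each library are printed.

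Levels are given as TPM (a value scaled for transcript length and for the library total). Fold changes were fitted on estimated read counts with edgeR's quasi-likelihood test across all genes. A gene was called when its adjusted p (Benjamini-Hochberg over all genes of the fit) was under 0.05 and its fold change at least 2. Errors after ± are the standard error of the log2 fold change, with n = 2 libraries per group throughout. P-values cover only the spread between libraries. That spread was estimated over all groups of a fit, so it does not come from the compared libraries alone. In sorted or precipitated samples, fewer cells of a type and less RNA per cell cannot be told apart.

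In WT mice, all 6 transcripts were higher in cerebellum ECs than in the ECs of either pituitary lobe. Slc2a1 was the most abundant of the 6 in each WT tissue, with 1579 and 1625 TPM in the cerebellum, 10.8 and 16.7 TPM in the anterior pituitary and 21.1 and 24.8 TPM in the posterior pituitary. Slc16a1 stood at 165 and 309 TPM in cerebellum ECs, 7.86 and 13.6 TPM in the anterior lobe and 3.67 and 10.6 TPM in the posterior lobe. For both genes every cerebellum library was above every pituitary library, whereas the Slc16a1 values of the pituitary lobes overlapped. Relative to anterior pituitary ECs, cerebellum ECs had 121-fold more Slc2a1 (log2 fold change 6.92 ± 0.42, adjusted p = 1.43e-06) and 22.8-fold more Slc16a1 (4.51 ± 0.61, adjusted p = 0.000527). Relative to posterior pituitary ECs the folds were 132 for Slc2a1 (adjusted p = 2.86e-06) and 37.0 for Slc16a1 (5.21 ± 0.63, adjusted p = 0.000322).

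The other carriers were at or near 0 in WT pituitary ECs. Mfsd2a, at 164 and 364 TPM in WT cerebellum ECs, had 0 and 1 read in the libraries of each pituitary lobe, and Slc35f2, at 81.8 and 56.4 TPM in cerebellum, also had 0 and 1 read in each lobe. Flvcr2, at 14.3 and 27 TPM in cerebellum, had 0 reads in all 4 WT pituitary libraries. Atp10a, at 39.2 and 26.9 TPM in cerebellum, kept a low level, with 0.412 and 0.594 TPM in the anterior lobe and 0.0497 and 1.24 TPM in the posterior lobe. From summed reads, Mfsd2a in cerebellum was 33693-fold above the anterior lobe, with a 95% exact interval of 6047 to 1330863 that covers counting error only, and Flvcr2 was at least 2302-fold higher, taking 3 reads over the group as the floor that a count of 0 allows. Atp10a was 69.7-fold higher in cerebellum than in the anterior lobe (6.12 ± 1.07, adjusted p = 0.00359) and 51.1-fold higher than in the posterior lobe (5.68 ± 1.05, adjusted p = 0.00640). The difference from the posterior lobe ran from 4.69 to 9.85 on the log2 scale without each library in turn, and was called in 13 of 14 settings. Against both lobes 6 of 6 members were called higher in cerebellum, where 3.0% of all genes were called higher against the anterior and 2.3% against the posterior lobe; both comparisons share the cerebellum libraries. Mfsd2a, Slc35f2 and Flvcr2 had too few reads to be compared between WT anterior and posterior pituitary ECs. Of the other 3 members, 0 were called by edgeR there, 0 had an unadjusted p under 0.05 and DESeq2 called 0, with 0.994% of all genes called.

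**Figure D1:**
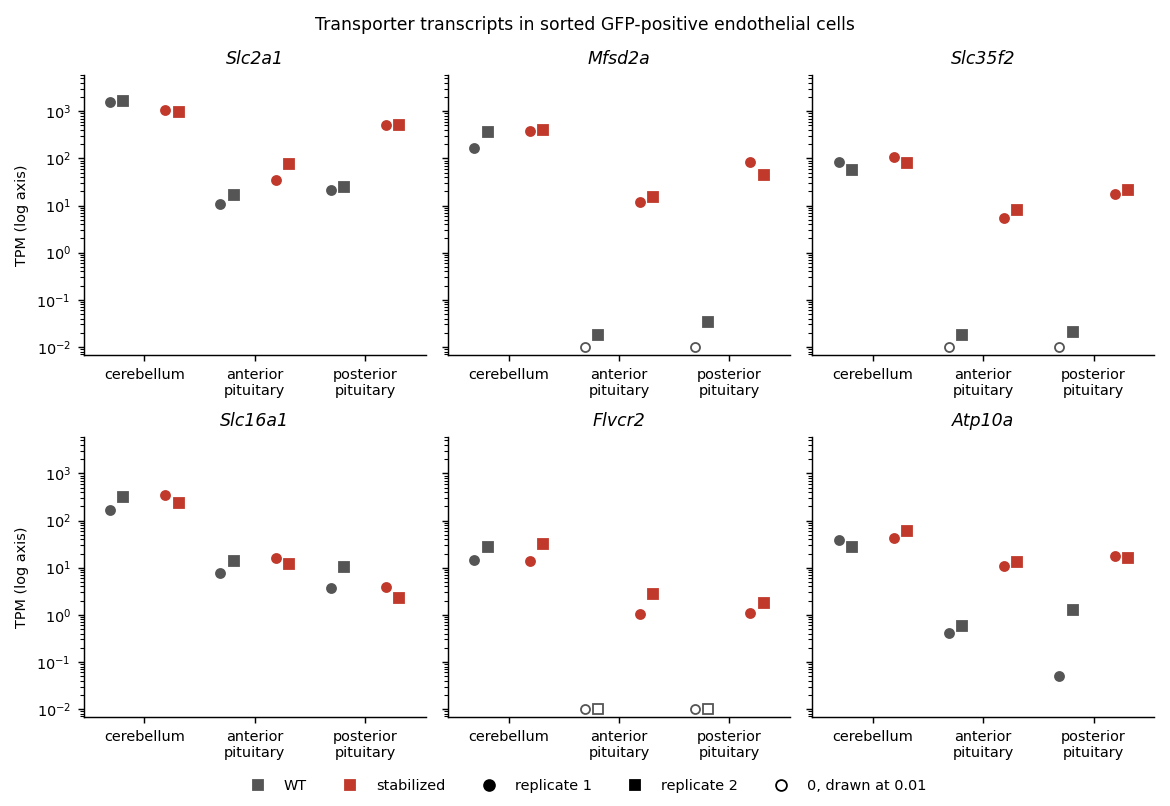
TPM of the 6 transporter transcripts on a log axis in each sorted GFP-positive library, by tissue, with WT in grey, stabilized in red, circles for replicate 1, squares for replicate 2 and open symbols for 0 drawn at 0.01. Mfsd2a, Slc35f2 and Flvcr2 rise in pituitary ECs from 0 or near 0, Slc2a1 rises further in the posterior than in the anterior lobe, and the Slc16a1 values of WT and stabilized pituitary ECs overlap.

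Beta-catenin stabilization raised 4 of the 6 transcripts in anterior pituitary ECs and 5 of the 6 in posterior pituitary ECs, where 0.441% and 1.25% of all genes were called higher. Slc16a1 was called in neither lobe. In cerebellum ECs 0 of 6 were called, 0 had an unadjusted p under 0.05 and DESeq2 called 0, with 0.648% of all genes called; the largest changes there were 0.72 ± 0.85 for Atp10a and 0.64 ± 0.36 for Slc35f2 on the log2 scale (adjusted p = 0.833 and 0.549).

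Slc2a1 moved from 21.1 and 24.8 TPM to 511 and 511 TPM in posterior pituitary ECs, a 55.1-fold rise in the count fit (5.78 ± 0.40, adjusted p = 1.61e-05). In anterior pituitary ECs it moved from 10.8 and 16.7 TPM to 34.7 and 76.5 TPM, a 3.67-fold rise (1.88 ± 0.33, adjusted p = 0.0285). The groups did not overlap in either lobe. Tested directly, the posterior response was larger by 3.91 ± 0.47 on the log2 scale (15.0-fold, adjusted p = 0.00494), where 0.0558% of all genes were called higher. Without the library with 2 tissue labels the difference was 4.39 (adjusted p = 7.56e-08) and the anterior rise 1.42 (adjusted p = 0.0307). On TPM with limma (log2(TPM + 0.5)) the difference was 2.55 with an adjusted p of 0.166, and in the count fit with an offset for gene length it was 3.23 (adjusted p = 0.109), so the call was lost once transcript length entered, with the sign kept. The anterior rise was called in 8 of 14 settings, with an adjusted p of up to 0.140. It was lost with the length offset, with only the groups compared, with limma on TPM and without WT replicate 2 (1.74, adjusted p = 0.117).

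Mfsd2a and Slc35f2 had 0 or 1 read in WT pituitary ECs and rose in both lobes. In anterior pituitary ECs Mfsd2a reached 12.0 and 15.5 TPM, with 894 reads against 1 in WT (ratio 1127, 95% exact interval 202 to 44555), and in posterior pituitary ECs it reached 82.5 and 44.4 TPM, with 7296 reads against 1 (ratio 8615, interval 1546 to 340319). Slc35f2 reached 5.32 and 8.0 TPM in the anterior lobe (1091 reads against 1, ratio 1375, interval 246 to 54362) and 17.7 and 21 TPM in the posterior lobe (3459 reads against 1, ratio 4084, interval 733 to 161368). Adjusted p-values were 2.25e-05 and 2.62e-06 for Mfsd2a and 1.25e-05 and 2.62e-06 for Slc35f2 in the anterior and posterior lobe. With 0 or 1 read in WT, the difference between the lobes' responses had a wide error, at 2.98 ± 2.07 for Mfsd2a and 1.6 ± 1.85 for Slc35f2 (adjusted p = 0.720 and 0.932), and it could not be estimated for Flvcr2.

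Flvcr2 rose from 0 reads in every WT pituitary library to a low level. Stabilized anterior pituitary ECs held 1.05 and 2.83 TPM (75 and 312 reads) and stabilized posterior pituitary ECs 1.12 and 1.80 TPM (225 and 386 reads), against 14.3 and 27 TPM in WT cerebellum ECs. These are rises of at least 163-fold in the anterior lobe (adjusted p = 0.00599) and at least 240-fold in the posterior lobe (adjusted p = 0.00265). These calls held in 10 of 14 settings in the anterior and 11 of 14 in the posterior lobe, with adjusted p-values of up to 0.526 and 0.243 with limma on log2(TPM + 1), and of 0.197 and 0.0976 with only the groups compared in the fit. Of the 387 reads behind the anterior floor, 312 came from the library with 2 tissue labels. Without each library in turn the fitted anterior rise ran from 9.16 to 11.46 on the log2 scale.

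Atp10a was higher in all 4 stabilized pituitary libraries than in any WT pituitary library. In anterior pituitary ECs it went from 0.412 and 0.594 TPM to 10.8 and 12.9 TPM, a 25.3-fold difference that did not pass the test (4.66 ± 1.0, adjusted p = 0.0792). In posterior pituitary ECs it went from 0.0497 and 1.24 TPM to 17.9 and 16.3 TPM, a 38.2-fold rise (5.26 ± 1.03, adjusted p = 0.0252). The WT posterior libraries were far apart, and the rise was 9.42 without WT replicate 2 and 4.28 without WT replicate 1. The anterior difference was called by DESeq2 (4.67, adjusted p = 0.00312), with the replicate number as a block (4.63, adjusted p = 0.0265) and without the library with 2 tissue labels (4.27, adjusted p = 3.65e-07), in 8 of 14 settings in all. The difference between the lobes was 0.59 ± 1.23 (adjusted p = 1.0).

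Slc16a1 stood at 7.86 and 13.6 TPM in WT anterior pituitary ECs and at 16.4 and 11.8 TPM in stabilized ones. In the posterior lobe it stood at 3.67 and 10.6 TPM in WT and, after stabilization, at 3.81 and 2.3 TPM. Genotypes overlapped in both lobes. Rescaled over protein-coding genes, the anterior values were 15.6 and 26.1 in WT against 31.9 and 28.5, without overlap, and the posterior ones 5.65 and 22.7 against 10.5 and 6.36. The fitted differences were 0.29 ± 0.53 in the anterior lobe (adjusted p = 1.0) and −0.59 ± 0.53 in the posterior lobe (adjusted p = 0.673), and Slc16a1 was called in none of 14 settings in either lobe. The sign in the posterior lobe depended on WT replicate 2, without which the difference was 0.71 (adjusted p = 0.734).

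**Figure D2:**
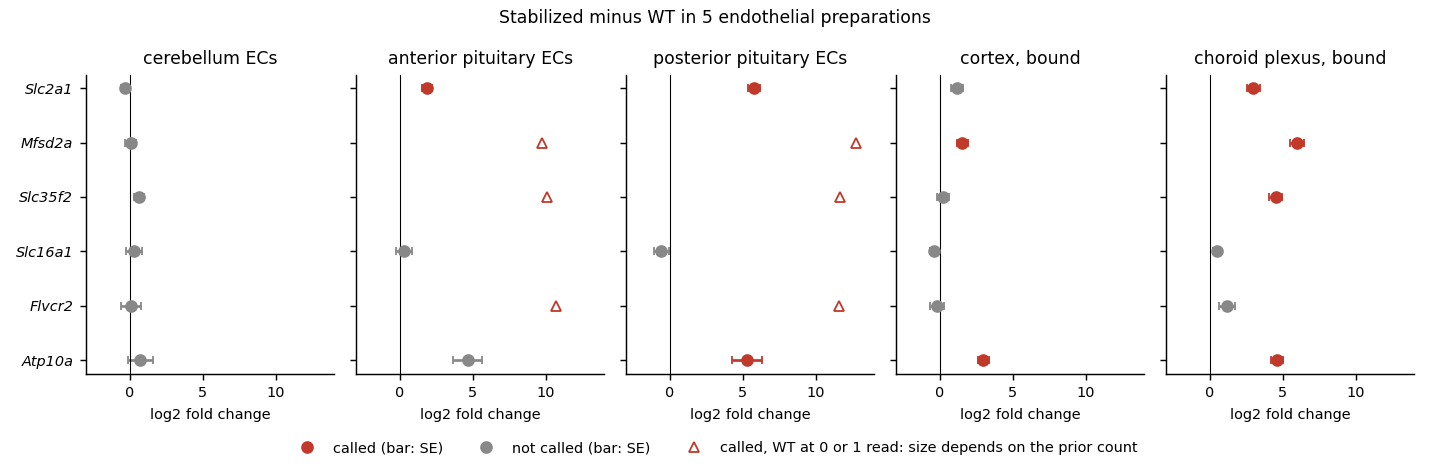
Log2 fold change of stabilized over WT (points, bars ± SE) for each transporter in ECs of the cerebellum and both pituitary lobes and in the bound libraries of cortex and choroid plexus, with red for called, grey for not called and open triangles where WT had 0 or 1 read. Slc16a1 lies near 0 in every preparation, and Atp10a lies above 2 in both pituitary lobes and both bound preparations, with the anterior pituitary value not called.

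Set against WT cerebellum ECs, stabilized pituitary ECs differed by transporter in how much of the level they reached. In stabilized anterior pituitary ECs 5 of 6 members were called lower than in WT cerebellum ECs (1.90% of all genes), with Slc2a1 at −5.04 ± 0.38, Mfsd2a at −4.95, Slc16a1 at −4.22 ± 0.60, Flvcr2 at −3.77 and Slc35f2 at −3.44 on the log2 scale (adjusted p from 1.23e-05 to 0.0183). In stabilized posterior pituitary ECs 3 of 6 were called lower (1.54% of all genes): Slc16a1 at −5.80 ± 0.65 (55.6-fold, adjusted p = 0.000330), Mfsd2a at −1.61 (adjusted p = 0.0431) and Slc35f2 at −1.48 (adjusted p = 0.0464). The calls for Mfsd2a and Slc35f2 held in 7 and 6 of 14 settings and that for Slc16a1 in all 14. Slc2a1 at −1.26 ± 0.33 was not called (adjusted p = 0.0583). Flvcr2 at −2.88 ± 0.73 (7.35-fold lower, adjusted p = 0.0656) was not called either, though it was in 8 of 14 settings. Atp10a was not called in the anterior lobe (−1.46 ± 0.87, adjusted p = 0.549) or in the posterior lobe (−0.42 ± 0.85, adjusted p = 0.937), although in both lobes its TPM lay below those of the WT cerebellum libraries. These comparisons share the WT cerebellum libraries.

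In the WT posterior pituitary the GFP-negative cells held more Slc2a1 and Mfsd2a than the ECs did. The 8 markers of pituitary endocrine cells summed to 54011 to 55928 TPM in this GFP-negative fraction, beside 43796 to 60580 in that of the anterior lobe and 473 to 3353 in WT posterior pituitary ECs. Slc2a1 was at 43.9 and 78.8 TPM in GFP-negative cells against 21.1 and 24.8 TPM in ECs, and Mfsd2a at 4.46 and 3.47 TPM (333 and 99 reads) against 0 and 1 read. Both were called lower in ECs, Slc2a1 by 3.54-fold (−1.83 ± 0.37, adjusted p = 0.00184) and Mfsd2a (adjusted p = 0.000134) with 432 reads against 1, a ratio of 378 once scaled to the libraries' effective sizes (counting interval 67.6 to 14980), 2 of 6 members where 7.45% of all genes were called lower. In the posterior lobe Slc35f2, with 1 read in each fraction, and Flvcr2, with 0 in both, had too few reads to be compared. In the WT anterior pituitary 3 of 6 members were called in either direction (11.3% of all genes), and Slc35f2, with 1 read in each fraction, could not be compared. Slc16a1 was higher in ECs (1.90 ± 0.54, adjusted p = 0.0257), and Mfsd2a (adjusted p = 0.00132) and Flvcr2 (adjusted p = 0.0258) were lower. Mfsd2a had 128 reads in GFP-negative cells against 1 in ECs, a ratio of 117 (counting interval 20.7 to 4676). Flvcr2 had 70 against 0, which makes it at least 21.4-fold lower in ECs with 3 reads over the group as the floor. The Flvcr2 call rests on GFP-negative replicate 1, which had 70 reads where replicate 2 had 0, and without it the fitted value was 0.00. The Slc16a1 call was lost without GFP-negative replicate 1 (1.56, adjusted p = 0.154) and without EC replicate 2 (1.68, adjusted p = 0.0881). With only the groups compared in the fit, 0 members were called in either lobe.

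In the WT cerebellum 5 of 6 members were called higher in ECs (4.46% of all genes). Slc2a1 was 26.8-fold higher, and the log2 differences of Mfsd2a, Slc35f2, Slc16a1 and Atp10a were 4.13, 6.70, 4.23 and 6.78. Flvcr2, at 14.3 and 27 TPM in ECs and 4.45 and 1.53 TPM in GFP-negative cells, was not called (3.54 ± 1.3, adjusted p = 0.101), though it was in 7 of 14 settings. With the preparation (tissue, genotype and replicate number) as a block all 6 members were called. The 8 markers of choroid plexus epithelium summed to 2.09 and 3683 TPM in these GFP-negative libraries, and the part of this in the Flvcr2 values was not tested.

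GFP-negative cells showed no called change of the 6 transcripts with genotype. The counts were 0 of 6 in the cerebellum, the anterior and the posterior pituitary, where 0.760%, 0.0408% and 0.133% of all genes were called; at an unadjusted p under 0.05 they were 1 (Slc2a1), 0 and 1 (Slc16a1), and DESeq2 called 0 in each. Slc35f2 and Flvcr2 had group means of at most 0.123 TPM in GFP-negative cells of both pituitary lobes, so the lack of a call says little about them there. Slc2a1 in GFP-negative cerebellum cells was at 58.8 and 35.7 TPM in WT and 16.4 and 13.2 TPM in stabilized mice, groups that did not overlap (−1.26 ± 0.38, adjusted p = 0.211). Its TPM was also lower without overlap in GFP-negative anterior pituitary cells, at 38.1 and 33.9 in WT and 17.5 and 13.9 in stabilized mice, and in those of the posterior lobe, at 43.9 and 78.8 against 27 and 25.2. The counts there did not show it, with fitted differences of 0.01 and −0.17 (adjusted p = 1 and 0.942), where limma on log2(TPM + 0.5) gave −1.18 and −1.16. Over all libraries, counts and log2(TPM + 0.5) gave opposite signs in 16 of 135 pairs of a member and a comparison, 0 of them called on counts. In the GFP-negative cerebellum groups marker sums of other cells moved too, at 1562 to 5943 against 629 to 2128 TPM for astrocytes, 152 to 201 against 53.4 to 111 for macrophages and microglia and 323 to 340 against 702 to 804 for neurons, and their part was not tested. In the GFP-negative pituitary groups erythrocyte markers went from 814 to 1169 up to 4840 to 11642 TPM in the anterior lobe. In the posterior lobe they went from 9.37 to 190 up to 1147 to 2675 TPM, and endocrine markers from 54011 to 55928 down to 27583 to 41298 TPM. The part of these was not tested either. Slc16a1 in GFP-negative posterior pituitary cells was at 4.03 and 3.82 TPM in WT and 5.49 and 3.86 TPM in stabilized mice (1.04 ± 0.44, adjusted p = 0.465).

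Before the RiboTag results, the makeup of the libraries has to be given. A single small RNA, Gm23935, took 0.407 to 0.410% of TPM in WT cortex bound libraries and 0.123 to 0.160% in WT cortex input libraries, but 31.0 to 52.3% in the stabilized cortex libraries and 43.1 to 50.9% in all choroid plexus libraries. Protein-coding genes held 53.6 to 55.0% of TPM in WT cortex bound libraries and 22.7 to 26.7% in the other bound libraries. In cortex, genotype and library makeup therefore cannot be told apart, and neither can tissue and makeup between the WT cortex and WT choroid plexus libraries, whereas WT and stabilized choroid plexus libraries had a like makeup. RiboTag levels are given below as TPM rescaled to a fixed sum over protein-coding genes, and a count fit on protein-coding genes alone, added after this was seen, changed no call of a member. The bound libraries of choroid plexus also held the transcripts of its epithelium, with a summed TPM of 8 epithelial markers of 19194 to 20158 in WT and 11920 to 13544 after stabilization, while the 10 endothelial markers summed to 496 to 613 and 818 to 1211. The bound WT cortex libraries held 2477 to 3490 TPM of the 9 macrophage and microglia markers against 1008 to 1216 in the stabilized ones. In the same libraries the endothelial markers summed to 554 to 1385 TPM in WT and 919 to 1062 after stabilization, over protein-coding shares of 53.6 to 55.0% and 25.7 to 25.8%, while the markers of neurons went from 1188 to 1429 down to 326 to 345 TPM and those of oligodendrocytes from 1220 to 1257 down to 208 to 218 TPM. The part of these differences in the results was not tested.

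In WT bound RNA all 6 transcripts were higher in cortex than in choroid plexus. Slc2a1 was at 2856 and 996 rescaled TPM in cortex and 82.8 and 104 in choroid plexus (8.76-fold, 3.13 ± 0.48, adjusted p = 0.00112). Mfsd2a was at 147 and 46.2 in cortex and 4.01 and 1.15 in choroid plexus (38.1-fold, adjusted p = 8.66e-05). The tissues did not overlap for these genes, though the cortex replicates differed by more than 2-fold. Slc16a1, at 60.9 and 48.2 against 8.52 and 7.05, was 9.51-fold higher in cortex (3.25 ± 0.28, adjusted p = 6.32e-05), and Slc35f2 was 25.6-fold and Atp10a 5.05-fold higher (adjusted p = 0.000136 and 0.00180). Flvcr2 was 3.48-fold higher (1.80 ± 0.54, adjusted p = 0.030) but overlapped, at 28.5 and 5.37 against 9.99 and 2.17, and it was not called without WT cortex replicate 1 (0.99, adjusted p = 0.247) or WT choroid plexus replicate 2 (1.34, adjusted p = 0.173). The Flvcr2 call held in 7 of 14 settings, with an adjusted p of up to 0.342. The count was 6 of 6 where 15.8% of all genes were called higher in cortex.

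**Figure D3:**
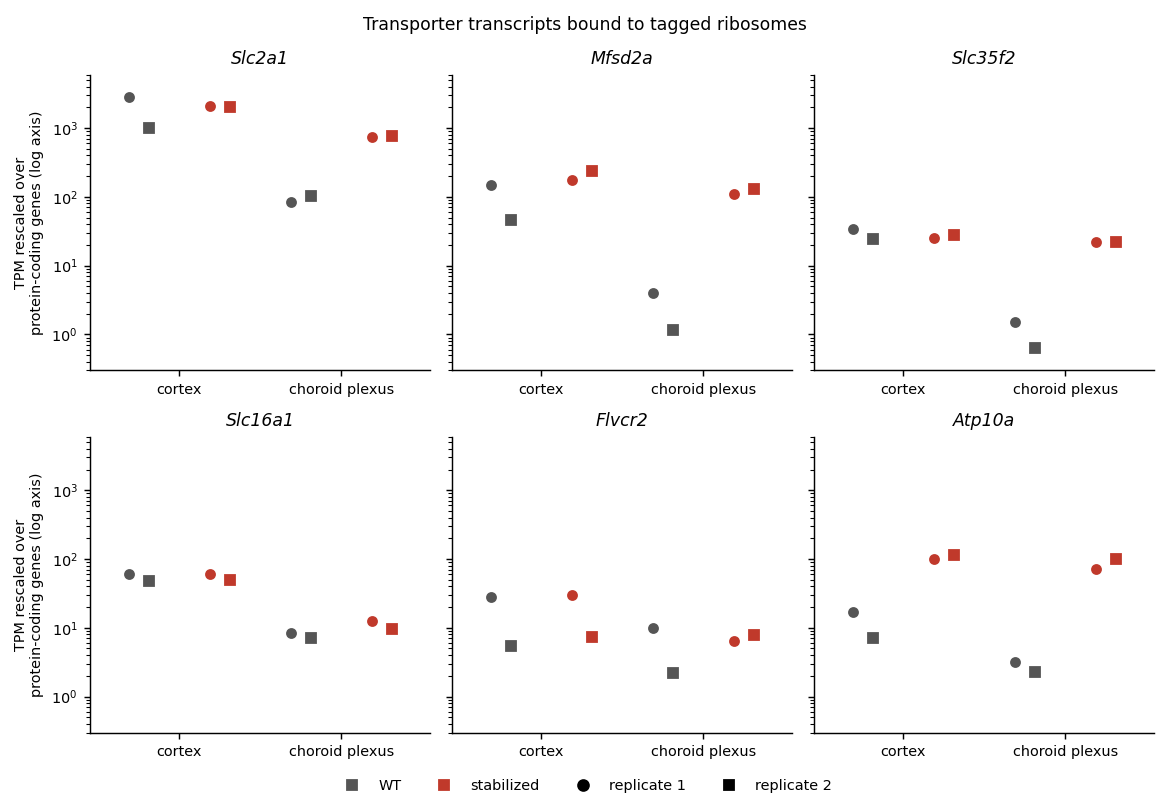
TPM rescaled over protein-coding genes, on a log axis, of the 6 transporter transcripts in each bound RiboTag library of cortex and choroid plexus, with WT in grey, stabilized in red, circles for replicate 1 and squares for replicate 2. In choroid plexus the stabilized values of Slc2a1, Mfsd2a, Slc35f2 and Atp10a lie above all WT values, those of Slc16a1 lie just above WT, and those of Flvcr2 lie between the WT values.

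Stabilization raised 4 of the 6 transcripts in bound RNA of choroid plexus, where 0.656% of all genes were called higher. Atp10a went from 3.14 and 2.31 to 70.9 and 99.6 rescaled TPM (23.7-fold, 4.57 ± 0.42, adjusted p = 0.00264). Mfsd2a went from 4.01 and 1.15 to 110 and 131 (62.0-fold, 5.95 ± 0.49, adjusted p = 0.00172). These 2 flippase and lipid carrier transcripts were called in 14 of 14 settings and their genotypes did not overlap. Slc35f2 went from 1.51 and 0.634 to 21.9 and 22.1 (22.4-fold, 4.49 ± 0.47, adjusted p = 0.00430) and Slc2a1 from 82.8 and 104 to 731 and 772 (7.81-fold, 2.97 ± 0.47, adjusted p = 0.0250). The Slc2a1 call was lost without WT replicate 1 (2.72, adjusted p = 0.0816) and with limma on TPM (adjusted p from 0.0836 to 0.0887).

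Slc16a1 and Flvcr2 were not called in bound choroid plexus RNA. Slc16a1 was at 8.52 and 7.05 rescaled TPM in WT and 12.6 and 9.48 in stabilized libraries (0.46 ± 0.26, adjusted p = 0.480), and its groups did not overlap. Flvcr2 was at 9.99 and 2.17 in WT and 6.39 and 7.87 in stabilized libraries (1.17 ± 0.53, adjusted p = 0.372), with both stabilized values between the WT ones. Neither was called in any of 14 settings. In WT choroid plexus neither was called higher in bound than in input RNA (−0.14 and −0.78 on the log2 scale). Their bound signal is therefore not shown to be endothelial.

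In bound RNA of cortex 2 of 6 members were called higher after stabilization (3.65% of all genes). Atp10a went from 17.1 and 7.10 to 101 and 113 rescaled TPM (7.85-fold, 2.97 ± 0.38, adjusted p = 0.00387) and was called in 14 of 14 settings. Mfsd2a went from 147 and 46.2 to 176 and 234 (2.88-fold, 1.53 ± 0.38, adjusted p = 0.0452). The groups did not overlap for either gene, but the Mfsd2a call was lost without WT replicate 2 (1.05, adjusted p = 0.0571), without stabilized replicate 1 (1.40, adjusted p = 0.160) or 2 (1.67, adjusted p = 0.0812), and with limma on TPM the difference was 0.22. Slc2a1 (1.17 ± 0.44, adjusted p = 0.155), Slc35f2 (0.21 ± 0.38), Slc16a1 (−0.40 ± 0.25) and Flvcr2 (−0.20 ± 0.51) were not called, and with limma on log2(TPM + 0.5) Slc2a1 and Slc35f2 were at −0.78 and −1.14.

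The response in choroid plexus exceeded that in cortex for Mfsd2a, by 4.43 ± 0.60 on the log2 scale (21.5-fold, adjusted p = 0.0104), and for Slc35f2, by 4.27 ± 0.60 (19.3-fold, adjusted p = 0.0118), 2 of 6 members where 0.864% of all genes were called higher. For Atp10a the difference of the responses was 1.6 ± 0.52 (adjusted p = 0.154) and for Slc2a1 1.80 ± 0.63 (adjusted p = 0.180). The unlike makeup of the WT cortex libraries bears on each of these differences.

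Bound RNA was richer than input in all 6 transcripts in WT cortex and in 2 of them in WT choroid plexus, where 7.46% and 8.67% of all genes were called higher. In cortex Flvcr2 was 30.5-fold (4.93, adjusted p = 5.48e-05) and Slc2a1 18.0-fold (4.17, adjusted p = 8.82e-06) higher in bound RNA, and Mfsd2a rose least, by 1.73 on the log2 scale (adjusted p = 0.00332). In choroid plexus Atp10a (2.82 ± 0.48, adjusted p = 0.00111) and Slc35f2 (adjusted p = 0.00337) were called higher in bound RNA. Slc35f2 had 14 and 6 reads there and 0 reads in both input libraries, which makes it at least 6.39-fold higher with 3 reads over the group as the floor. In choroid plexus Slc16a1 and Flvcr2 were not called, at −0.14 and −0.78 (adjusted p = 0.744 and 0.298) and, with limma on log2(TPM + 0.5), at 0.62 and 0.08. Slc2a1 and Mfsd2a were at 0.82 and 0.22 (adjusted p = 0.122 and 0.819) and, with limma, at 2.01 and 0.83. Slc2a1 held 82.8 and 104 rescaled TPM in bound and 23.9 and 33.8 in input RNA, without overlap, and was called in 3 of 14 settings. Between input and bound RNA of WT cortex the 9 macrophage and microglia markers went from 90.2 to 100 TPM to 2477 to 3490 TPM and the 10 endothelial markers from 44.4 to 55.8 TPM to 554 to 1385 TPM, and the part of the former in these differences was not tested.

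In whole homogenate Flvcr2 was the member called lower in cortex than in choroid plexus. In WT input RNA it was at 9.92 and 3.53 rescaled TPM in choroid plexus and 0.279 and 0.130 in cortex, 18.2-fold lower in cortex (−4.19 ± 0.40, adjusted p = 4.92e-05). Slc35f2 (adjusted p = 0.00131; 93 and 47 reads in cortex against 0 in both choroid plexus libraries, at least 15.8-fold higher), Mfsd2a (3.47, adjusted p = 7.02e-05) and Atp10a (1.21, adjusted p = 0.0497) were called higher in cortex input, so that 4 of 6 were called in either direction where 52.7% of all genes were. Slc2a1 (−0.50 ± 0.15, adjusted p = 0.0167) and Slc16a1 (0.76 ± 0.20, adjusted p = 0.00957) passed the test but not the fold threshold. The direction of Slc2a1 turned with the measure. It was at 77.0 and 58.7 rescaled TPM in cortex and 23.9 and 33.8 in choroid plexus input, higher in cortex without overlap, and its fitted difference was 0.82 with an offset for gene length and 2.70 with limma on log2(TPM + 0.5). The Atp10a call held in 5 of 11 settings, with an adjusted p of up to 0.242, and was lost without WT cortex input replicate 1 (0.51, adjusted p = 0.235) and without WT choroid plexus input replicate 1 (0.99, adjusted p = 0.195) or 2 (1.52, adjusted p = 0.0954). With genotype, 0 of 6 were called in choroid plexus input (0.106% of all genes), 4 had an unadjusted p under 0.05 and DESeq2 called 3 (Atp10a, Mfsd2a and Slc35f2). Atp10a there went from 0.209 and 0.283 to 2.60 and 5.58 rescaled TPM without overlap (3.24 ± 0.46, adjusted p = 0.0755). In cortex input 1 of 6, Atp10a, was called higher (1.47 ± 0.38, adjusted p = 0.0274, 8.44% of all genes), at 1 to 2.17 without each library in turn. Slc2a1 there turned with the measure. It went from 77.0 and 58.7 to 29.8 and 27.3 rescaled TPM without overlap. Its fitted difference was 0.35 on counts, −1.35 with the length offset and −2.81 with limma on log2(TPM + 0.5), and it was called in 4 of 14 settings.

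Other genes of the same families were counted in the same fits. Of 55 further genes of the glucose, monocarboxylate, lysophospholipid and choline, SLC35F and flippase families, 44 were tested in sorted ECs. In posterior pituitary ECs 4 were called higher and 1 lower after stabilization, where 1.25% and 0.541% of all genes were, with a median log2 fold change of 0.59 beside 0.01 for all genes. Of the 4, 3 belong to the list of monocarboxylate transporters and their chaperones, of which 11 were tested. Slc16a4 went from 0 and 0.423 TPM to 24.4 and 14.4 TPM (7.93 ± 1.40, adjusted p = 0.0142), toward the 48.9 and 55.2 TPM of WT cerebellum ECs. Bsg, which codes for basigin, the chaperone that brings MCT1 to the cell surface, went from 120 and 73.4 TPM to 207 and 175 TPM (1.46 ± 0.30, adjusted p = 0.0306). Slc16a9 went from 3.13 and 3.66 TPM to 9.17 and 8.14 TPM (2.03 ± 0.39, adjusted p = 0.0241). Groups did not overlap for these 3 genes. Slc35f5 was the other one called higher (2.13 ± 0.41, adjusted p = 0.0231), and Slc44a2, a choline transporter-like gene, was lower (−1.17 ± 0.23, adjusted p = 0.0266).

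In anterior pituitary ECs 0 of the 44 were called by edgeR (0.441% of all genes were called higher), 6 had an unadjusted p under 0.05 and DESeq2 called 2 (Slc16a9 and Slc2a4), with a median of 0.23. Between WT cerebellum and anterior pituitary ECs 3 were called higher in cerebellum, Bsg, Slc16a4 and Slc16a9, and Slc44a2 was lower, where 3.0% and 2.26% of all genes were. Against posterior pituitary ECs 6 were higher and 2 lower (2.3% and 2.1% of all genes): these 4 with the same signs, Atp11b, Atp8a1 and Slc35f5 higher and Atp9a lower. In bound choroid plexus RNA 47 were tested and 1 was called, the flippase Atp8a2 (−2.09 ± 0.34, adjusted p = 0.0276; 0.197% of all genes were called lower), and in bound cortex RNA Bsg (1.43 ± 0.31) and Atp10d (1.09 ± 0.25) were higher and Slc2a13 (−1.84 ± 0.47) lower, where 3.65% and 2.67% of all genes were.

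ATAC-seq peaks were taken as deposited for each library, at a fold enrichment above 2 and a −log10 q above 2, and overlapping peaks of the 12 libraries were joined into sites; a library without a peak is given as 0. A site was gained in a tissue when both stabilized libraries and neither WT library had a peak there. Within 100 kb of the gene body, 5 of 6 members had a gained site in anterior pituitary ECs, 5 of 6 in posterior pituitary ECs and 4 of 6 in cerebellum ECs. The member without one in either pituitary lobe was Slc16a1, though with 1 library of each genotype it had one in the anterior lobe by either replicate number and in the posterior lobe by number 2. Among 21938 protein-coding genes the shares with a gained site were 27.2%, 50.6% and 45.2%, so a gained site near a gene was common, and no test was made. The sites gained near Atp10a numbered 4 in the anterior and 10 in the posterior lobe, those near Flvcr2 2 and 1, and those near Slc16a1 0 and 0. A site of Slc16a1 and a site of Flvcr2 were lost in the anterior lobe, 1 each. Peak lists differed in length, with 20634 and 21050 regions in the WT posterior libraries and 28926 and 38583 in the stabilized ones. Across the genome 7535 peaks were gained and 554 lost in posterior pituitary ECs, 2792 and 1896 in anterior pituitary ECs and 5147 and 680 in cerebellum ECs. The part of list length in the gains at the members was not tested.

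The Slc16a1 promoter was open in all 12 libraries, with a fold enrichment in WT of 14.6 and 13.7 for cerebellum, 15.0 and 16 for anterior and 12.9 and 10.4 for posterior pituitary ECs. The distal sites before the gene were not. The site at −64.9 kb, whose sequence is printed above, had a fold enrichment of 9.51 and 9.45 in WT cerebellum ECs, 13.2 and 12.6 in stabilized ones and no peak in any of the 8 pituitary libraries. Sites at −55.6 kb (6.51 and 4.63 in WT cerebellum, 9.30 and 10.2 after stabilization) and −70.0 kb (2.91 and 4.49, then 4.28 and 4.07) showed the same pattern. From −94.7 to −41.4 kb none of the 8 pituitary libraries had a deposited peak of any size. After the gene, a site at +36.5 kb was open in all 12 libraries and one at +31.8 kb in all 8 pituitary libraries and in no cerebellum library. In cerebellum ECs 5 sites near Slc16a1 were gained.

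**Figure D4:**
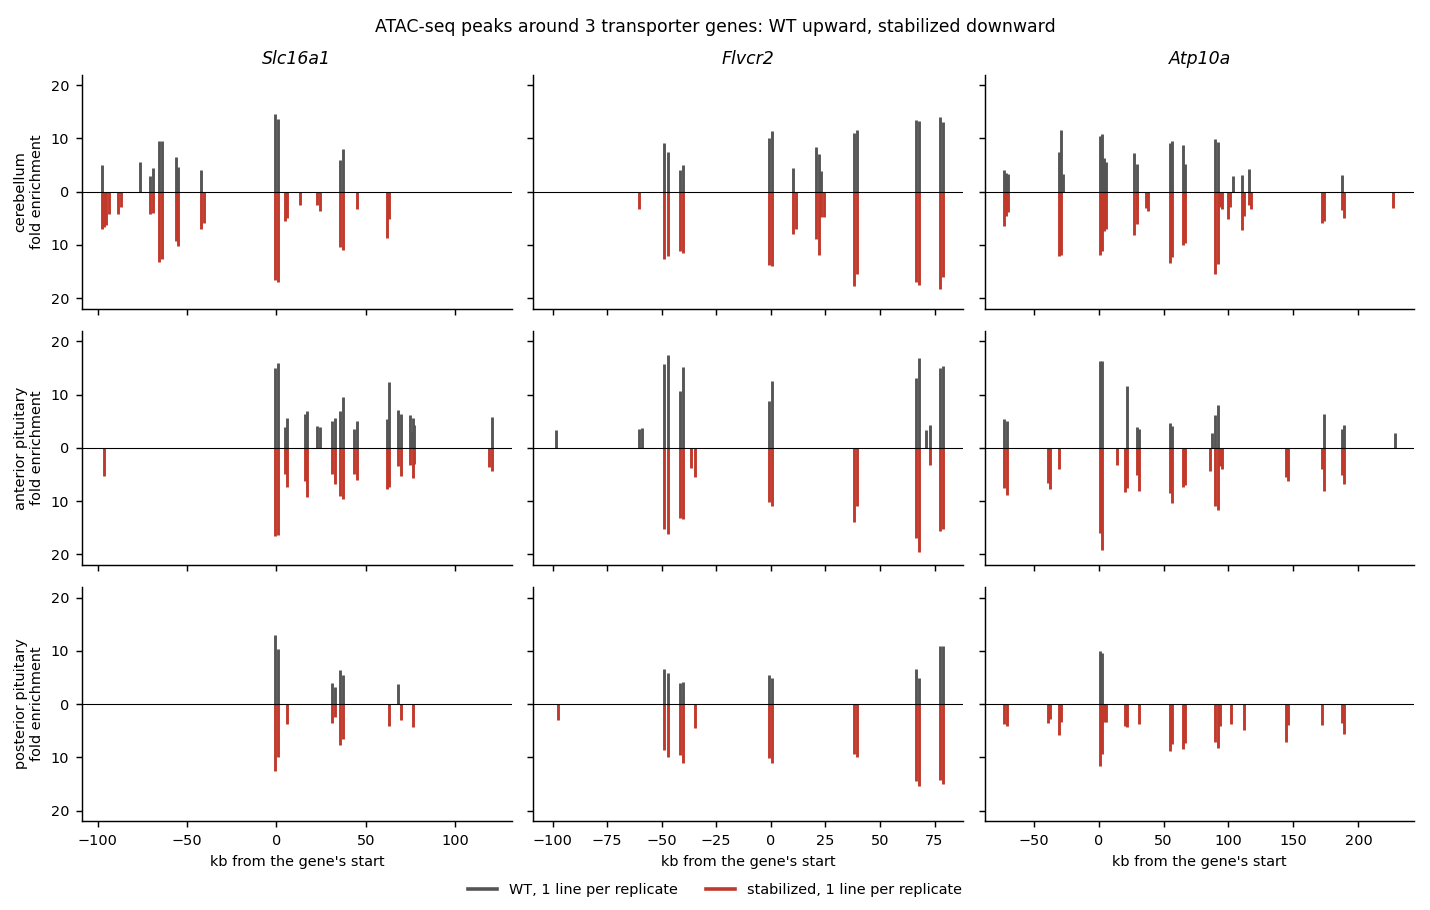
Fold enrichment of ATAC-seq sites (1 line per replicate, WT drawn upward, stabilized downward) against distance from the gene start in kb, for Slc16a1, Flvcr2 and Atp10a in ECs of the cerebellum and both pituitary lobes. Sites before Slc16a1 appear in cerebellum ECs, with 1 at −97.0 kb also in 1 stabilized anterior pituitary library, while an intronic site of Flvcr2 at +38.7 kb and several of Atp10a appear in stabilized but not in WT posterior pituitary ECs.

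At Flvcr2 the promoter was open in all 12 libraries, at 10.1 and 11.4 in the WT cerebellum and 5.49 and 4.97 in the WT posterior lobe. The intronic site at +38.7 kb had a fold enrichment of 11.1 and 11.5 in WT cerebellum ECs, no peak in the 4 WT pituitary libraries, 14 and 10.9 in stabilized anterior and 9.34 and 10.0 in stabilized posterior pituitary ECs. Another intronic site, at +21.4 kb, was at 8.44 and 6.99 in WT cerebellum ECs, at 8.87 and 11.8 in stabilized ones, and had no peak in any pituitary library. Stabilization thus went with a peak at one of these cerebellar sites in the pituitary and with none at the other.

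Atp10a had 1 site in each WT posterior pituitary library, against 14 and 13 after stabilization; this one lay at the start of the transcript Atp10a-201, at 9.94 and 9.67. The intronic site at +90.8 kb was at 9.91 and 9.39 in WT cerebellum ECs, at 6.14 and 8.0 in the WT anterior lobe against 10.9 and 11.6 after stabilization, and went from no peak to 7.07 and 8.18 in posterior pituitary ECs. The site at +65.7 kb was at 8.73 and 5.25 in WT cerebellum ECs and went from no peak to 7.41 and 7.02 in the anterior and 8.36 and 7.24 in the posterior lobe. The site at −38.1 kb had no peak in any cerebellum library or WT pituitary library and reached 6.58 and 7.80 in the stabilized anterior and 3.47 and 2.74 in the stabilized posterior lobe. A site at +144.8 kb was likewise seen in stabilized pituitary ECs alone, at 5.56 and 6.24 and at 7.16 and 3.92.

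By a definition chosen after the values were seen, 2217 sites of the genome had a peak in both WT cerebellum libraries and in none of the 4 WT pituitary libraries. Of these, 24.3% had a peak in both stabilized anterior and 32.8% in both stabilized posterior pituitary libraries, and 46.7% had one in no stabilized pituitary library. Slc16a1 had 3 such sites, all 3 without a peak in stabilized pituitary ECs. Slc2a1 had the most, 11, of which 3 had a peak in both stabilized anterior and 7 in both stabilized posterior libraries, and Mfsd2a had 3, of which 2 had one in each lobe. Each of these sites of Slc2a1 and Mfsd2a had a peak in at least 1 stabilized pituitary library. Slc35f2 had 3, all with a peak in both libraries of both lobes. Of the 5 at Atp10a, 1 was seen in the stabilized anterior and 3 in the stabilized posterior lobe, and of the 2 at Flvcr2, 1 in each. The numbers are too small to set any gene apart from the genome.

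The words ATCAAAG or TTCAAAG, sought on both strands, stood in 3.04 to 8.67% of summit windows of 201 bases in the 12 libraries. Across the genome they stood at the strongest summit of 21.7% of sites gained in the anterior pituitary, 15.5% in the posterior pituitary and 13.0% in the cerebellum, a choice of summit that the former range does not make. Among sites gained near the 6 members they were in 6 of 19, 8 of 30 and 1 of 13. These sites were joined over the 12 libraries and read at the strongest summit of any library. The shares across the genome used the strongest summit of stabilized replicate 1 of the tissue, so the counts and shares are not measured alike. All 4 windows printed above hold a word, that of Slc16a1 included, but they are examples and not a sample of the sites. Of the sites near members gained in either pituitary lobe, 8 of 35 hold one. None of the 6 promoters (RefSeq windows from 250 before to 50 after the start, on GRCm38.p6) holds a word, against 8.65% of 32851 promoters. A match of these letters is a description of the sequence.

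Transcript estimates split the genes unevenly. Slc16a1 has 1 annotated transcript, of 4426 bases, while Slc2a1 has 5, Mfsd2a 4 and the other 3 members 2 each. The transcript with the largest share of TPM was short for some genes: Slc2a1-202, of 698 bases, held 51.3% of TPM but 12.5% of reads over the 40 RNA libraries, and Mfsd2a-203, of 356 bases, held 46.2% of TPM but 6.42% of reads. Levels of Slc2a1 and Mfsd2a in TPM therefore rest in large part on reads assigned to short transcripts, and single-end reads of one transcript cannot always be told from those of another. Most Slc2a1 reads (66.8%, with 39.6% of TPM) went to Slc2a1-204, which is annotated as subject to nonsense-mediated decay, a breakdown of mRNA. The protein-coding Slc2a1-201, of 3260 bases, held 20.4% of reads and 7.85% of TPM.

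Shares of TPM shifted between libraries. Slc2a1-202 held 0 and 0% in WT posterior pituitary ECs, 66.7 and 57.9% in stabilized ones, and 47.9 and 54.4% in WT cerebellum ECs. Slc35f2-202, a transcript of 1685 bases with a retained intron, held 22.8 and 45.2% in stabilized posterior pituitary ECs and 56.1 and 52.5% in bound RNA of stabilized choroid plexus, but 0 and 0% in WT cortex bound RNA, 30.0 and 30.8% in stabilized cortex bound RNA and 0 and 36.6% in WT cerebellum ECs. Replicates of 1 group could differ as much as groups did, as Mfsd2a-203 shows with 0 and 55.4% in WT cerebellum ECs.

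The share of the leading transcript was compared between fractions within pairs of the same tissue, genotype and replicate number, a pairing that is assumed. The comparison took 10 tests with an exact two-sided permutation test. None passed after Benjamini-Hochberg adjustment, and 1 had an unadjusted p under 0.05. The 6 tests with 3 to 6 pairs could not have passed, since the smallest p they allow is 0.0312 to 0.250, which adjustment over the 10 tests takes to 0.0521 or above. Mfsd2a-203 averaged 49.7% in GFP-positive and 19.6% in GFP-negative libraries, a difference of 30.2 percentage points, and was higher in 7 of 8 pairs (exact p = 0.0156, adjusted p = 0.156). For Slc2a1-202 the difference was −3.86 percentage points over 12 pairs (exact p = 0.697), and between bound and input RNA it was 14 percentage points over 8 pairs (exact p = 0.172).

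**Figure D5:**
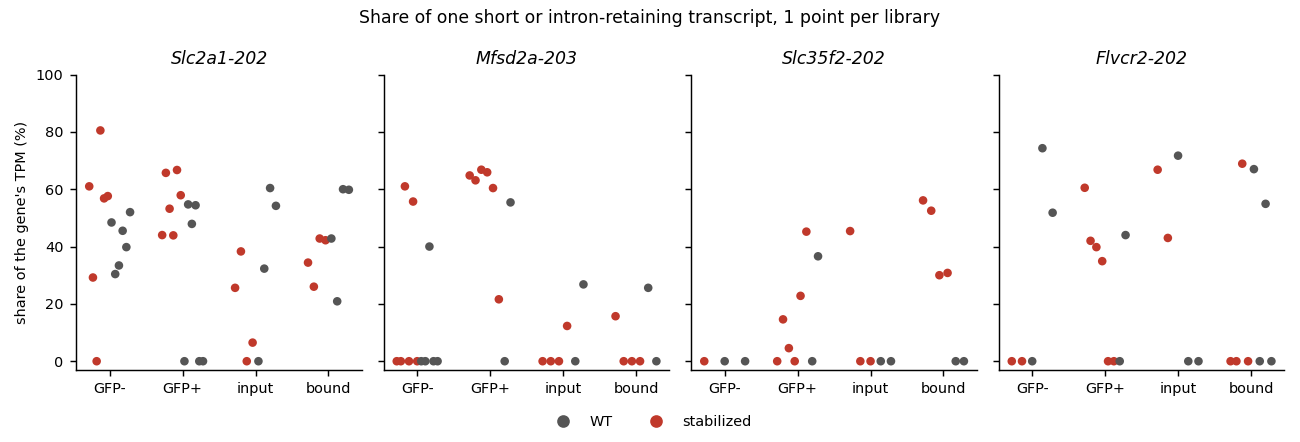
Share of the gene's TPM held by Slc2a1-202, Mfsd2a-203, Slc35f2-202 and Flvcr2-202 in each library with at least 20 reads of the gene, by fraction and genotype. Points spread widely within fractions, and Mfsd2a-203 lies higher in GFP-positive than in GFP-negative libraries in 7 of 8 pairs.

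Across the means of the 20 RNA groups, the genes whose log2(TPM + 1) followed each carrier most closely among 10635 genes were found by Pearson's r, given as a description since groups share tissues and fractions. For Slc16a1 they were Ldlrad3 (0.932), Foxc1 (0.906) and Maoa (0.903), for Flvcr2 Slc22a8 (0.936), Edn3 (0.913) and Ctsh (0.913), and for Atp10a Net1 (0.962), Prom1 (0.959) and Slc7a5 (0.951). Slc35f2 followed Slc40a1 (0.959), Tcf7 (0.958) and Slc39a8 (0.952), Mfsd2a followed Ndnf (0.947), Slc35f2 (0.942) and Nkd1 (0.935), and Slc2a1 followed Tcf7 (0.928), Srarp (0.917) and Slc19a3 (0.916).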

How the data were processed

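RNA was measured in 40 libraries and accessible chromatin in 12. For each RNA library the authors deposited Salmon 0.10.2 values per transcript on Ensembl release 92 (GRCm38/mm10), as an estimated count, not normalized, and as TPM, scaled within the library; libraries were made with a kit for low RNA input and read from 1 end over 75 cycles. For each ATAC-seq library the authors deposited MACS2 2.1.1.20160309 peaks, called per library on reads aligned with Bowtie2 2.3.2, with the fold enrichment (a ratio to the local background) and the −log10 q. The submitters' processing notes also list Picard, deepTools and kallisto 0.44.0.

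Transcripts were summed to genes with GENCODE M21, and counts were rounded. The summed genes left out at most 0.385% of reads. They were tested in R 4.3.3 with edgeR 4.0.16 (TMM, filterByExpr, quasi-likelihood, 1 coefficient per group) in fits of all sorted (21343 genes), GFP-positive (17915), GFP-negative (19612), RiboTag (18241), bound (16775) and input libraries (16085), with Benjamini-Hochberg adjustment over all genes of a fit. The code was tested on simulated data. Standard errors are the log2 fold change divided by the square root of F. Alternatives were DESeq2 1.42.0, RLE normalization, no filter, the replicate number as a block, an offset for gene length, only the groups compared, limma 3.58.1 on log2(TPM + 0.1, 0.5 or 1), leaving out each library and, chosen after seeing the data, protein-coding genes alone and a crossed block. For comparisons of fractions the block was the preparation, that is tissue, genotype and replicate number. Peaks were handled with Python 3.11.15 and pandas 2.3.3, sequences read with samtools 1.23.1, and plots drawn with matplotlib 3.10.9. Members and gene lists were chosen with earlier results of these data known. The genes named are the 6 members, the family genes called in a comparison, and the 3 genes that followed each member most closely. One gene of the family lists is not reported here and was left out of their counts. Groups came from the labels, except doses, ages and pooling, which came from the study's methods. Intervals and floors cover counting error only.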

Additional observations from a re-analysis of the deposited data

Results flagged for a closer look

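In 3 results the response to stabilization differed between preparations by a test of the difference itself, edgeR's quasi-likelihood interaction term with Benjamini-Hochberg adjustment. The Slc2a1 response was larger in posterior than in anterior pituitary ECs by 3.91 on the log2 scale (adjusted p = 0.00494), and over the leaving out of each library it ran from 3.56 to 4.39. The Mfsd2a response was larger in bound choroid plexus RNA than in bound cortex RNA by 4.43 (adjusted p = 0.0104), and the Slc35f2 response by 4.27 (adjusted p = 0.0118). In the last 2, the cortex response sets stabilized libraries against WT libraries of another makeup (Gm23935 at 38.8 to 52.3% against 0.407 to 0.410% of TPM in bound RNA), so that genotype and makeup in cortex cannot be told apart.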

How the results depend on the processing

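Of 1481 recomputed values, 1305 kept their direction and their side of the threshold, or, for counts of members, stayed within 1.5 times. The values for single genes cover those called and 4 others, and of them 118 lost and 8 gained the call and 1 changed sign. Of 77 pairs of a member and a comparison that were not called, 23 were called in at least 1 other setting, in 77 of 1090 settings in all. The cause of these changes was not tested. Slc16a1 in posterior pituitary ECs turned to 0.71 without WT replicate 2 (range without each library −1.24 to 0.71). With the replicate number as a block, the members below WT cerebellum ECs in stabilized posterior pituitary ECs numbered 5 in place of 3, and no other count of called members moved by over 1.5 times. Fractions of a tissue, and the lobes of a pituitary pool, were taken from the same material by the study's methods, but no source used here says that a replicate number marks it, and replicate differences of the groups compared correlated at −0.21 to 0.0906, and for choroid plexus input (−0.21), where numbers may be crossed, a crossed block also called 0 members.

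Counts of called members moved as follows. DESeq2 and the fit without a filter gave 4 for the difference between the choroid plexus and cortex responses, 3 for choroid plexus input and 5 for stabilized posterior pituitary against WT cerebellum ECs. The length offset gave 1 for cortex bound, 1 for the difference between the choroid plexus and cortex responses, 2 for cortex input, 0 for the difference between the lobes and 1 for bound against input choroid plexus. Only the groups compared gave 1 for cortex bound, 1 for choroid plexus input, 0 for cortex input, 3 for posterior pituitary, 1 for bound against input choroid plexus and 0 for GFP-positive against GFP-negative cells in either pituitary lobe. Limma on TPM gave 2 for choroid plexus bound (pseudocount 1), 1 for cortex bound and 3 for cortex input (all pseudocounts), 2 for anterior pituitary (0.1), 0 for the difference between the lobes (all), 1 for stabilized posterior pituitary against WT cerebellum (0.1) and 1 for bound against input choroid plexus (0.5 and 1). The 3 in cortex input were Slc2a1, Mfsd2a and Slc16a1, all lower after stabilization, at −2.81, −1.76 and −1.27 with a pseudocount of 0.5. Counts gave 0.35, 0.43 and −0.38 for them, and the member called there on counts was Atp10a, higher.

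Without each library in turn, members called ranged from 3 to 5 in anterior and 5 to 5 in posterior pituitary ECs and 0 to 0 in cerebellum ECs after stabilization, 1 to 2 for the difference between the lobes, 5 to 5 and 1 to 4 for stabilized anterior and posterior pituitary against WT cerebellum ECs, 6 to 6 for WT cerebellum against either lobe and 0 to 1 between WT lobes. They ranged from 5 to 5, 1 to 3 and 2 to 4 for GFP-positive against GFP-negative cells of cerebellum, anterior and posterior pituitary, and from 0 to 1, 0 to 0 and 0 to 0 in GFP-negative cells after stabilization. In RiboTag RNA they ranged from 5 to 6 for WT cortex against choroid plexus bound, 3 to 4 in choroid plexus bound, 1 to 3 in cortex bound, 2 to 4 for the difference of these responses, 6 to 6 and 2 to 2 for bound against input cortex and choroid plexus, 3 to 4 for cortex against choroid plexus input, 0 to 0 in choroid plexus input and 0 to 1 in cortex input. Members with a gained site numbered 6 to 6, 5 to 6 and 6 to 6 in anterior pituitary, posterior pituitary and cerebellum when 1 library of each genotype was used, so that Slc16a1 lacks a gained site in either lobe by the rule of 2 libraries. A window of 10 kb gave 4, 5 and 3. Tests of transcript shares passed in 0 to 0 cases. With 2 libraries per group, a p that misses the threshold does not show equal levels, and genes with 0 or 1 read in WT have no fitted fold to rely on. Median fold changes of all genes shifted by up to 0.12 on the log2 scale between RLE and TMM, in GFP-negative cerebellum cells.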
